A study of Mus musculus with 6 samples.

Results

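Intracisternal A-type particles (IAP) are endogenous retroviruses of the mouse genome. They were followed here through all repeat names that begin with IAP in the deposited table of reads assigned to repeats, which gave 24 names out of 1067. Of these, 10 name internal sequence, meaning the body of the element between its ends (names with -int or _I), and 14 name long terminal repeats (LTR). By their names 10 belong to the Ey subgroup, 1 to Ez, 2 to LTR1, 3 to LTR2, 2 to LTR3 and 2 to LTR4, and the remaining 4 (IAPA_MM-int, IAP-d-int, IAP1-MM_I-int and IAP1-MM_LTR) carry none of these tags and are called the other IAP names below. All 24 passed the filter on low counts, as did 940 names of the whole table.

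An IAP element is a retrovirus without an envelope gene in most copies: its internal part codes for the gag, pro and pol proteins, and the LTR on either side carries the promoter and the signal for poly(A) addition. A full transcript starts in the left LTR and ends in the right one, while a large number of LTR copies stand alone in the genome without an internal part. In somatic cells IAP copies are densely methylated, and DNMT1, the maintenance methyltransferase, copies this methylation to the new DNA strand with the help of UHRF1. In embryonic cells KRAB zinc-finger proteins also recruit TRIM28 (KAP1) and the histone methyltransferase SETDB1 to these elements.

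The libraries came from cultured epidermal keratinocytes of 3 control and 3 Dnmt1Δ/Δep mice, one library per mouse. Mice were female per the labels and of a mixed C57BL/6J and 129SV background per the methods. Epidermis was taken at postnatal day 3 and the cells were grown for 5 days, per the labels and methods, before poly(A)-selected RNA sequencing (a legend in the study gives a shorter time). Dnmt1Δ/Δep mice carry floxed Dnmt1 alleles and a Keratin 5-Cre transgene, so the deletion is driven in cells with keratin 5 promoter activity and other cells of the culture keep the gene. The study used more than one Dnmt1 genotype as control, and which of these each control library came from is not given in the sources used here. Same-numbered libraries of the groups shared a flow-cell lane.

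Between 53433121 and 115526598 reads per library were counted on genes, and between 4940679 and 28673709 on repeats. Dnmt1 itself was at 394, 379 and 323 counts per 1000000 reads (CPM) in control libraries 1, 2 and 3 and at 49.7, 54.3 and 50.7 CPM in Dnmt1Δ/Δep libraries 1, 2 and 3, a log2 fold change of -2.83 (SE 0.11; adjusted p = 8.1e-05). The 10 keratinocyte markers summed to between 36273 and 39121 CPM in control and between 27122 and 27819 CPM in Dnmt1Δ/Δep libraries. Repeat levels below are set against the reads counted on genes in the same library, since IAP reads themselves took a large share of the repeat reads in one group and not in the other. The files hold no element lengths or copy numbers, so levels of different names are not levels per length.

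IAP reads were far more abundant in Dnmt1Δ/Δep keratinocytes, and most of them fell on internal names. All 24 IAP names together reached 0.170, 0.150 and 0.263 reads per 100 gene reads in control libraries 1, 2 and 3. In Dnmt1Δ/Δep libraries 1, 2 and 3 they reached 9.01, 8.32 and 8.85 reads per 100 gene reads. The groups lay far apart, and their means were 0.194 ± 0.0606 and 8.72 ± 0.363 (SD, n = 3), a ratio of 45.0. Control library 3 was the highest of its group, and within the lanes the ratio was 53.1, 55.6 and 33.6. In bulk RNA, more cells with active elements and more IAP RNA per cell cannot be told apart.

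The internal names accounted for most of these reads. Their sum was 0.146, 0.130 and 0.234 reads per 100 gene reads in control and 8.25, 7.75 and 8.25 in Dnmt1Δ/Δep cultures, a ratio of means of 47.6. LTR names summed to 0.0239, 0.0194 and 0.0294 reads per 100 gene reads in control and to 0.761, 0.571 and 0.602 in Dnmt1Δ/Δep libraries, a ratio of means of 26.6. Both sums were higher in every Dnmt1Δ/Δep library than in any control library. The share of IAP reads on LTR names was correspondingly lower, at 14.1%, 13% and 11.2% in control and 8.44%, 6.87% and 6.80% in Dnmt1Δ/Δep libraries. Expressed as internal reads per LTR read, the ratio went from 6.09, 6.72 and 7.95 in control to 10.8, 13.6 and 13.7 in Dnmt1Δ/Δep libraries, with no overlap. Counts over 3 libraries each cannot reach an exact two-sided permutation p below 0.1.

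**Figure D1:**
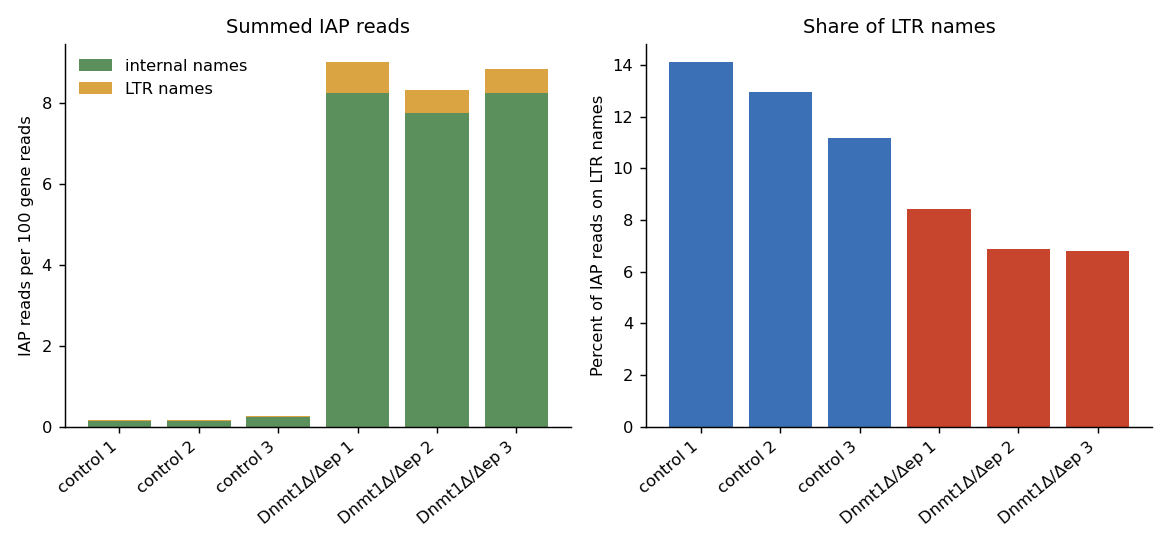
Left, summed reads of the 10 internal and 14 LTR names of IAP per 100 gene reads (vertical axis from 0) in each of 6 libraries, stacked by kind. Right, percent of IAP reads on LTR names in the same libraries: the 3 control libraries lie at 11.2% to 14.1% and the 3 Dnmt1Δ/Δep libraries at 6.80% to 8.44%.

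One name, IAPEz-int, the internal part of the Ez subgroup, carried most of the IAP reads. It alone held 71.7%, 72.8% and 75.9% of all IAP reads in control libraries and 80.9%, 82.2% and 82.1% in Dnmt1Δ/Δep libraries. Without it the other 23 names still gave 0.0480, 0.0407 and 0.0634 reads per 100 gene reads in control and 1.72, 1.48 and 1.58 in Dnmt1Δ/Δep libraries, a ratio of means of 31.4. Across the lanes IAP names made up 55.7%, 59.0% and 55.1% of the rise in all repeat reads per gene read, and IAPEz-int 81.1%, 82.4% and 82.3% of the rise in IAP reads. All repeats outside IAP went from 12.1, 8.72 and 8.98 reads per 100 gene reads in control to 19.1, 14.4 and 16 in Dnmt1Δ/Δep libraries, a ratio of means of 1.66.

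A repeat name was called where its adjusted p was at most 0.05 and its fold change at least 2, in the edgeR quasi-likelihood test across all 940 names with gene reads as library size. Of 24 IAP names 21 were called upregulated, among them 10 of 10 internal and 11 of 14 LTR names, and none was called downregulated. Over all repeat names tested 98, or 10.4%, were called upregulated, a count that was 149 without Dnmt1Δ/Δep library 2. No repeat name of any kind was called downregulated by this test, 0 names reached a 2-fold decrease at an unadjusted p of 0.05, and DESeq2 with size factors from genes also called 0. With upper-quartile factors over the repeat names, which put the median log2 fold change of all names at -0.29, 63 names were called upregulated and 10 downregulated, none of the latter IAP. In 23 of 24 IAP names every Dnmt1Δ/Δep library lay above every control library, as did 24.6% of all names tested.

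Because repeats as a whole took more reads in the Dnmt1Δ/Δep libraries, the scale moves every fold change by a similar amount. The median log2 fold change over all repeat names was 0.33 with gene reads as library size and -0.05 with TMM factors computed over the repeat names. On that second scale 21 of 24 IAP names were called upregulated as well, where 8.21% of 938 names tested were. Log2 fold changes of the IAP names ran from 0.64 to 5.64 per gene read and from 0.29 to 5.29 on the TMM scale, so all were positive on both. Fold changes below are per gene read.

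**Figure D2:**
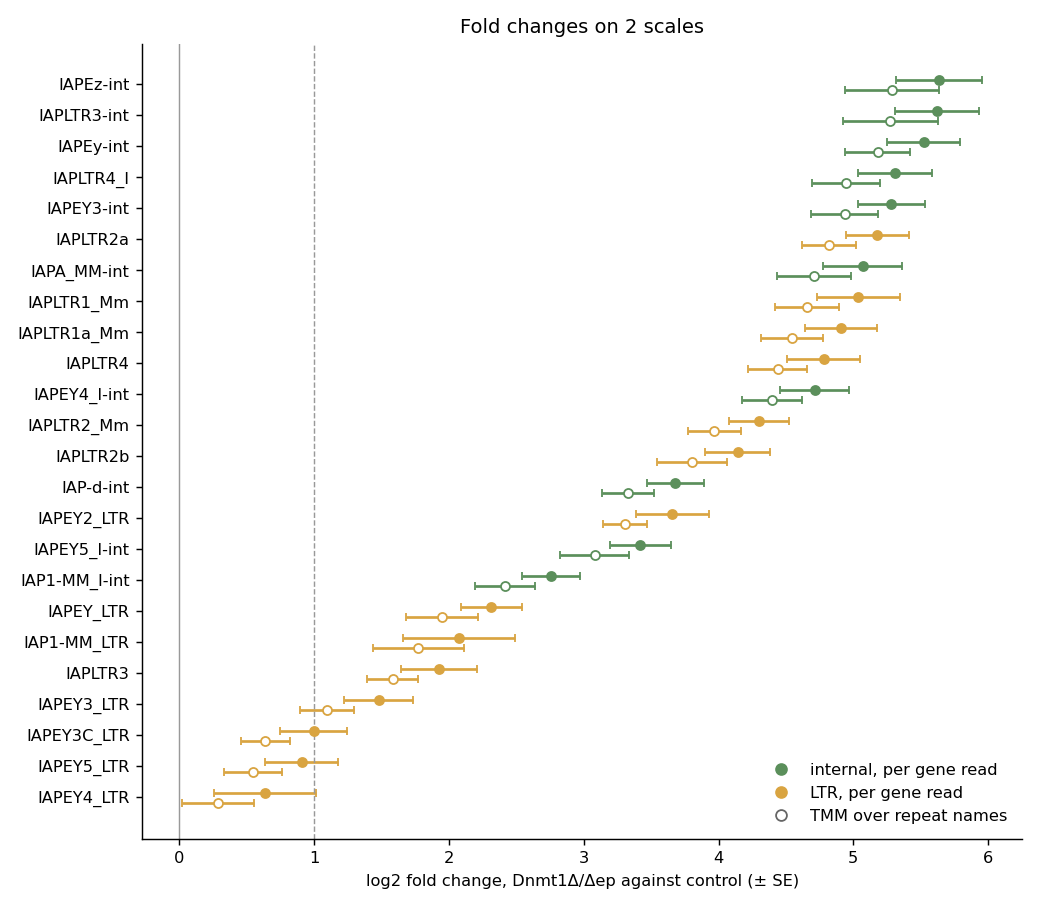
Log2 fold change ± SE (horizontal axis) of each of 24 IAP names, Dnmt1Δ/Δep against control; filled points use gene reads as library size and open points TMM factors over repeat names, green marks internal and ochre LTR names. The dashed line marks a log2 fold change of 1; the 21 called names lie between 1.48 and 5.64 per gene read and the 3 names not called at 0.64 to 0.996.

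IAP names filled much of the upper end of the distribution over all repeats. They held ranks 1 to 4, with IAPEz-int, IAPLTR3-int, IAPEy-int and IAPLTR4_I, and made up 6 of the 10 and 12 of the 20 largest log2 fold changes. The median log2 fold change was 5.18 over the 10 internal names, 2.99 over the 14 LTR names and 0.33 over all names tested. Internal names ranged from 2.76 to 5.64 and LTR names from 0.64 to 5.18, so that the kinds overlapped: 7 of 10 internal names and 6 of 14 LTR names differed by more than 16-fold. Names that were already higher in control keratinocytes tended to have larger fold changes, with a Spearman rho of 0.70 across the 24 names, 0.43 across the internal and 0.63 across the LTR names. Related names share libraries and multi-mapped reads, and the control level enters both measures, so these correlations are descriptions only.

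**Figure D3:**
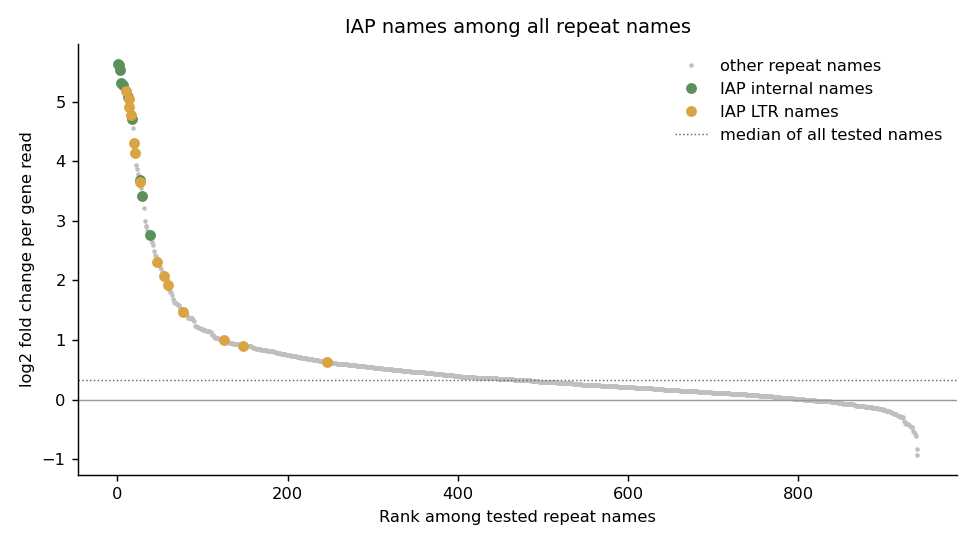
Log2 fold change per gene read (vertical axis) of 940 repeat names in order of rank (horizontal axis), with the 10 internal and 14 LTR names of IAP coloured and the other names in grey. The dotted line is the median of all names at 0.33; IAP names occupy ranks 1 to 4, and IAPEY4_LTR has the lowest rank of the 24 at 246.

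IAPEz-int was the most abundant IAP name in every library. Its level, in reads per 1000000 gene reads (RPM), was 1215, 1088 and 1996 in control libraries 1, 2 and 3 and 72891, 68355 and 72657 in Dnmt1Δ/Δep libraries 1, 2 and 3. The log2 fold change was 5.64 (SE 0.32; edgeR adjusted p = 7.2e-07), a 49.7-fold difference and the largest of all repeat names tested. Dnmt1Δ/Δep libraries differed from each other by far less than control libraries did, with a coefficient of variation of 3.58% against 34.3%. The log2 fold change of IAPLTR3-int was close behind that of IAPEz-int, at 5.62 (SE 0.31). Leaving out each library gave at least 5.473 for IAPEz-int and at least 5.48 for IAPLTR3-int. The order of these names thus turned in at least 1 of those fits.

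The table holds no LTR name with the Ez tag. LTR1 and LTR2 names are known as LTRs of IAPEz-type elements, and they were the most abundant LTR names here. IAPLTR1_Mm was at 88.0, 67.4 and 116 RPM in control and at 3774, 2454 and 2692 in Dnmt1Δ/Δep libraries. It was upregulated with a log2 fold change of 5.04 (SE 0.31; adjusted p = 1.1e-06). IAPLTR1a_Mm, a close relative, was at 40.2, 35.0 and 53.9 in control and at 1513, 1167 and 1196 RPM in Dnmt1Δ/Δep libraries, a log2 fold change of 4.91 (SE 0.26; adjusted p = 5.9e-07). For both, Dnmt1Δ/Δep library 1 stood above the other Dnmt1Δ/Δep libraries. The number of IAPLTR1_Mm reads per IAPLTR1a_Mm read was 2.19, 1.92 and 2.16 in control and 2.49, 2.1 and 2.25 in Dnmt1Δ/Δep libraries, so that the groups overlapped.

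The 3 LTR2 names all rose. IAPLTR2a had the lowest control level of these names and the largest fold change of any IAP LTR, with 20.6, 18.3 and 23.7 RPM in control and 842, 703 and 723 in Dnmt1Δ/Δep libraries (log2 fold change 5.18, SE 0.23; adjusted p = 4.1e-07). IAPLTR2_Mm was at 38.2, 29.1 and 38.9 in control and 729.7, 676 and 689.6 in Dnmt1Δ/Δep libraries, a log2 fold change of 4.30 (SE 0.22; adjusted p = 5e-07). IAPLTR2b was at 31.4, 26.7 and 41.7 RPM in control and at 590.0, 589 and 579 in Dnmt1Δ/Δep libraries, a log2 fold change of 4.14 (SE 0.24; adjusted p = 7.3e-07). The order of the names thus turned, from IAPLTR2a being the least abundant in each control library to being the most abundant in each Dnmt1Δ/Δep library. Reads on IAPLTR2a per read on IAPLTR2b were 0.658, 0.687 and 0.568 in control and 1.43, 1.19 and 1.25 in Dnmt1Δ/Δep libraries, without overlap (exact two-sided permutation p = 0.1, the smallest that 3 against 3 allows). This and the other ratios between single IAP names, apart from the matched internal and LTR pairs, were chosen after the levels were seen.

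Internal reads rose more than those of the LTR1 and LTR2 names together. There were 5.56, 6.17 and 7.28 IAPEz-int reads per read on the LTR1 and LTR2 names in control and 9.79, 12.2 and 12.4 in Dnmt1Δ/Δep libraries. As subgroups, LTR1 went from 0.0128, 0.0102 and 0.0170 to 0.529, 0.362 and 0.389 reads per 100 gene reads, a ratio of means of 31.9. LTR2 went from 0.00902, 0.00741 and 0.0104 to 0.216, 0.197 and 0.199, a ratio of means of 22.8. The share of LTR2 names among IAP reads was 5.32%, 4.95% and 3.96% in control and 2.4%, 2.37% and 2.25% in Dnmt1Δ/Δep libraries.

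In the LTR3 subgroup the internal and the LTR name moved very differently. IAPLTR3-int, the second most abundant IAP name in the Dnmt1Δ/Δep libraries, was at 84.6, 83.8 and 148 RPM in control and at 5022, 5106 and 5424 in Dnmt1Δ/Δep libraries (log2 fold change 5.62, SE 0.31; adjusted p = 5.9e-07). IAPLTR3, its LTR name, was at 0.735, 0.530 and 0.786 in control and at 2.74, 2.20 and 2.82 in Dnmt1Δ/Δep libraries, which was 42 to 71 counts per control library, and its log2 fold change was 1.93 (SE 0.28; adjusted p = 0.00088). As reads per read of another subgroup, there were 14.4, 13 and 13.5 IAPEz-int reads per IAPLTR3-int read in control and 14.5, 13.4 and 13.4 in Dnmt1Δ/Δep libraries, so that the groups overlapped. RepEnrich, the program used for the repeat counts, divides a read that maps to several related names among them, and the part of shared reads in this proportion was not tested.

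The LTR4 subgroup was scarcer, and there the LTR name followed the internal name more closely. IAPLTR4_I was at 18.6, 16.5 and 25.9 RPM in control and at 952, 739 and 732 in Dnmt1Δ/Δep libraries, a log2 fold change of 5.31 (SE 0.28; adjusted p = 5e-07). IAPLTR4 was at 0.704, 0.550 and 0.842 in control and at 19.4, 16.7 and 21.2 in Dnmt1Δ/Δep libraries, a log2 fold change of 4.78 (SE 0.27; adjusted p = 7.2e-07). Its control levels rest on 45 to 68 counts per library.

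Ey elements showed the widest range. The subgroup went from 0.00771, 0.00611 and 0.00810 reads per 100 gene reads in control to 0.190, 0.180 and 0.206 in Dnmt1Δ/Δep libraries, a ratio of means of 26.3. Of its 10 names the 4 internal ones were all called upregulated, as were 3 of 6 LTR names. The ratio of means was 32.2 for the summed internal and 6.71 for the summed LTR names of Ey. Internal reads per LTR read within Ey were 3.35, 2.90 and 3.66 in control and 13.6, 16.9 and 17.8 in Dnmt1Δ/Δep libraries.

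Among the internal Ey names, IAPEy-int was at 6.16, 4.62 and 7.54 RPM in control and at 283, 257 and 301 in Dnmt1Δ/Δep libraries, a log2 fold change of 5.52 (SE 0.27; adjusted p = 4.1e-07). IAPEY3-int had the highest mean of the subgroup in both groups, with 22.6, 19.8 and 29.3 in control and 926, 869 and 995 in Dnmt1Δ/Δep libraries (log2 fold change 5.28, SE 0.25; adjusted p = 4.1e-07). IAPEY4_I-int was at 25.3, 15.6 and 20.6 in control and at 509, 516 and 586 in Dnmt1Δ/Δep libraries, a log2 fold change of 4.71 (SE 0.26; adjusted p = 5.9e-07). The fold changes of these 3 names lay within 1 of each other on the log2 scale. IAPEY5_I-int differed less, from 5.30, 5.40 and 6.23 RPM in control to 53.1, 58.5 and 69.5 in Dnmt1Δ/Δep libraries, a log2 fold change of 3.42 (SE 0.23; adjusted p = 2.1e-06).

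Every Ey LTR name changed less than IAPEy-int, IAPEY3-int and IAPEY4_I-int did. The largest change among the Ey LTR names was above that of IAPEY5_I-int. IAPEY2_LTR, for which the table holds no internal name, changed most, from 6.96, 4.47 and 6.08 RPM in control to 90.6, 64.3 and 66.0 in Dnmt1Δ/Δep libraries (log2 fold change 3.66, SE 0.27; adjusted p = 5.2e-06). IAPEY_LTR was at 4.71, 6.37 and 6.23 in control and at 27.5, 27.1 and 31.5 in Dnmt1Δ/Δep libraries, a log2 fold change of 2.31 (SE 0.23; adjusted p = 4.4e-05). IAPEY3_LTR was at 1.43, 1.55 and 1.98 in control and at 5.14, 3.69 and 4.94 in Dnmt1Δ/Δep libraries, a log2 fold change of 1.48 (SE 0.25; adjusted p = 0.0027). It was the called IAP name with the smallest fold change, and it lost its call with upper-quartile factors over the repeat names, at a log2 fold change of 0.85.

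The 3 IAP names that were not called are all Ey LTRs. IAPEY3C_LTR was at 1.58, 1.41 and 1.198 RPM in control and at 2.92, 2.44 and 3.03 in Dnmt1Δ/Δep libraries, with an adjusted p of 0.024 in edgeR but a 1.99-fold difference, just under the 2-fold threshold. It was called without control library 1, at a log2 fold change of 1.095, and without Dnmt1Δ/Δep library 2, at 1.08. IAPEY5_LTR was at 0.704, 0.758 and 0.823 in control and at 1.55, 1.28 and 1.45 in Dnmt1Δ/Δep libraries (log2 fold change 0.91, SE 0.27; edgeR adjusted p = 0.056). The libraries of the groups did not overlap for these names. IAPEY4_LTR was the one name with overlap: it was at 2.34, 1.09 and 1.05 in control and at 2.54, 1.59 and 2.87 in Dnmt1Δ/Δep libraries, or 226, 105 and 56 against 154, 138 and 331 counts, and its log2 fold change was 0.64 (SE 0.38; edgeR adjusted p = 0.35). Control library 1 reached nearly the level of Dnmt1Δ/Δep library 1 for this name, and the Dnmt1Δ/Δep library was the higher one in each of 3 lanes. With the lane as a block the edgeR adjusted p was 0.028 for IAPEY4_LTR (log2 fold change 0.67) and 0.0041 for IAPEY5_LTR (log2 fold change 0.90), both still under 2-fold and not called.

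The other IAP names differed among themselves as well. IAPA_MM-int was at 33.3, 27.5 and 50.03 RPM in control and at 1387, 1115 and 1220.3 in Dnmt1Δ/Δep libraries, a log2 fold change of 5.07 (SE 0.29; adjusted p = 7.3e-07). IAP-d-int had a comparable control level of 24.7, 22.1 and 28.0 and reached 331, 298 and 329.7, a log2 fold change of 3.68 (SE 0.21; adjusted p = 7.3e-07). IAP1-MM_I-int was the internal name with the smallest fold change, from 20.1, 18.3 and 24.98 in control to 139, 137 and 152 in Dnmt1Δ/Δep libraries (log2 fold change 2.76, SE 0.22; adjusted p = 7.5e-06). Internal names of a similar control level, with control means from 20.4 to 36.9, thus ended up between 143 and 1241 RPM in the Dnmt1Δ/Δep mean. IAP1-MM_LTR varied most in control, with 1.67, 0.467 and 0.805 RPM, against 4.49, 3.67 and 4.28 in Dnmt1Δ/Δep libraries (log2 fold change 2.07, SE 0.41; adjusted p = 0.0071). Without control library 1 its log2 fold change was 2.73 (adjusted p = 6.7e-05).

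**Figure D4:**
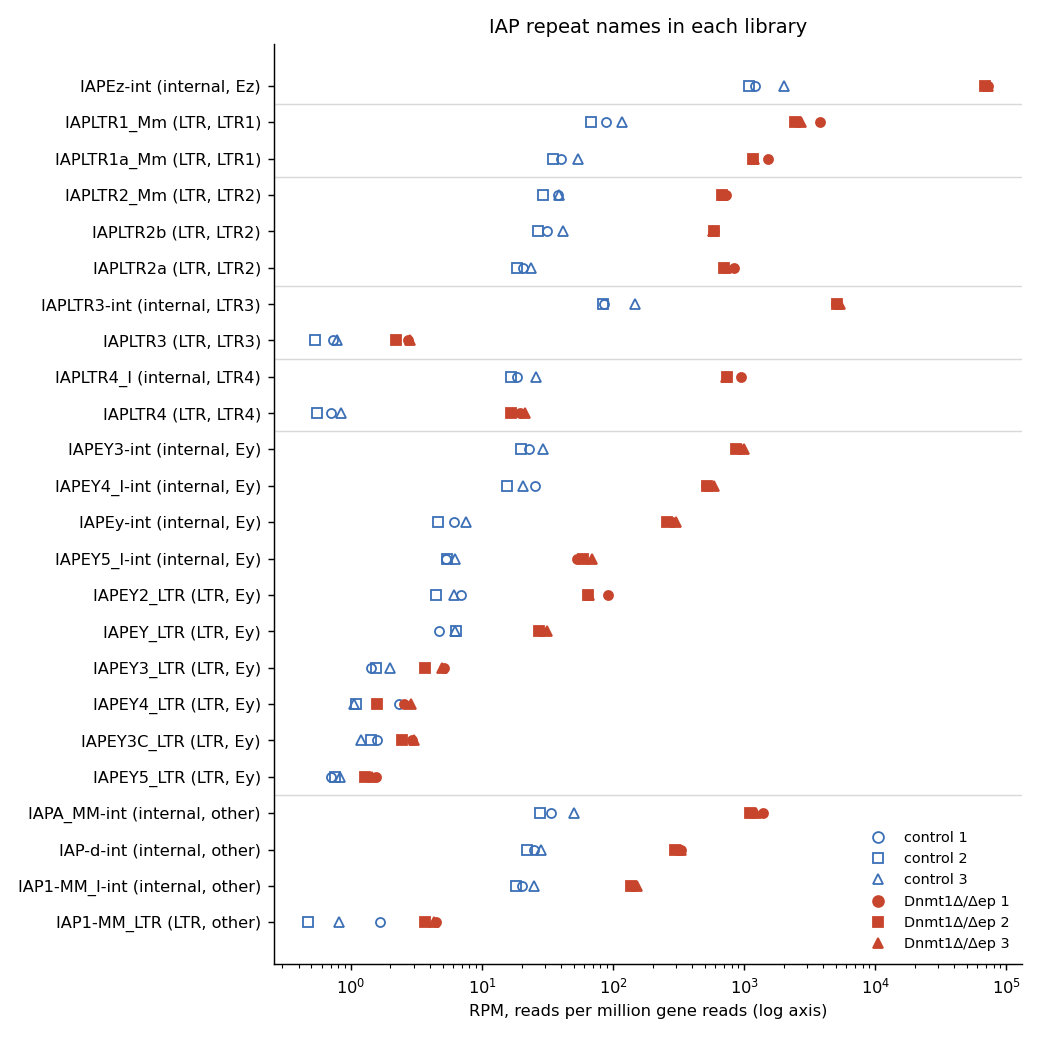
Level of each of 24 IAP names in each library, in RPM (reads per 1000000 gene reads) on a log axis, grouped by subgroup; open blue symbols are the 3 control and filled red symbols the 3 Dnmt1Δ/Δep libraries, with one symbol shape per lane. The groups overlap for IAPEY4_LTR only, and IAPEz-int is the most abundant name in all 6 libraries.

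The names also differed in how they varied within a group. Over the 24 names the coefficient of variation had a median of 21.3% among control and 10.1% among Dnmt1Δ/Δep libraries. Control library 3 was the highest control library for 18 names, among them 9 of 10 internal names, and control library 2 the lowest for 18. Among the Dnmt1Δ/Δep libraries, library 2 was the lowest for 19 names and the highest for none, while library 1 was the highest for 9 of 14 LTR names. Control library 3 and Dnmt1Δ/Δep library 1 thus set the upper ends of many ranges given above.

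To compare internal and LTR sequence of the same element, the log2 ratio of internal to LTR reads was fitted with limma in all 68 pairs of names that differ in the internal or LTR tag alone. Pairs with an adjusted p up to 0.05 were called, so a call means that the fold changes of the names of a pair differed. Of 7 IAP pairs 5 were called, and in all 5 the internal name changed more. Over all pairs 21, or 30.9%, were called in either direction, and 14, or 20.6%, with the larger change on the internal side. RepEnrich divides multi-mapped reads among related names here too, also between internal names of different elements. The part of such shared reads in the pair differences was not tested.

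IAPEY4 showed the widest difference. There were 10.8, 14.2 and 19.5 IAPEY4_I-int reads per IAPEY4_LTR read in control and 199, 324 and 204 in Dnmt1Δ/Δep libraries. The fold changes differed by 4.04 on the log2 scale (SE 0.28; adjusted p = 1.9e-05), a 16.4-fold change of the ratio. IAPEY3 had 15.8, 12.8 and 14.7 internal reads per LTR read in control and 180, 235 and 201 in Dnmt1Δ/Δep libraries, a log2 difference of 3.83 (SE 0.17; adjusted p = 2.9e-06). IAPLTR3 had the most internal reads per LTR read in both groups, with 114, 157 and 186 in control and 1826, 2315 and 1919 in Dnmt1Δ/Δep libraries (log2 difference 3.75, SE 0.22; adjusted p = 9.3e-06). In IAPEY, the LTR name was about as abundant as the internal name in control, at 1.31, 0.726 and 1.21 internal reads per LTR read, but not in Dnmt1Δ/Δep libraries, at 10.3, 9.48 and 9.55 (log2 difference 3.22, SE 0.24; adjusted p = 1.9e-05). IAPEY5 had 7.48, 7.08 and 7.49 internal reads per LTR read in control and 34.0, 45.6 and 47.7 in Dnmt1Δ/Δep libraries, a log2 difference of 2.51 (SE 0.18; adjusted p = 1.9e-05).

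The other 2 pairs did not pass the test. IAPLTR4 had 26.3, 29.7 and 30.5 internal reads per LTR read in control and 49.1, 44.1 and 34.6 in Dnmt1Δ/Δep libraries, which did not overlap (log2 difference 0.55, 95% confidence interval 0.13 to 0.97; limma adjusted p = 0.053). It was called without Dnmt1Δ/Δep library 3 (adjusted p = 0.044) and with a prior count of 5 (adjusted p = 0.028), and in no other alternative. IAP1-MM had 12.01, 38.7 and 30.7 internal reads per LTR read in control and 30.8, 37.4 and 35.5 in Dnmt1Δ/Δep libraries (log2 difference 0.51, 95% confidence interval -0.44 to 1.46; limma adjusted p = 0.42). This difference rested on control library 1, the library with the highest IAP1-MM_LTR level in control, and without it came to -0.00045.

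**Figure D5:**
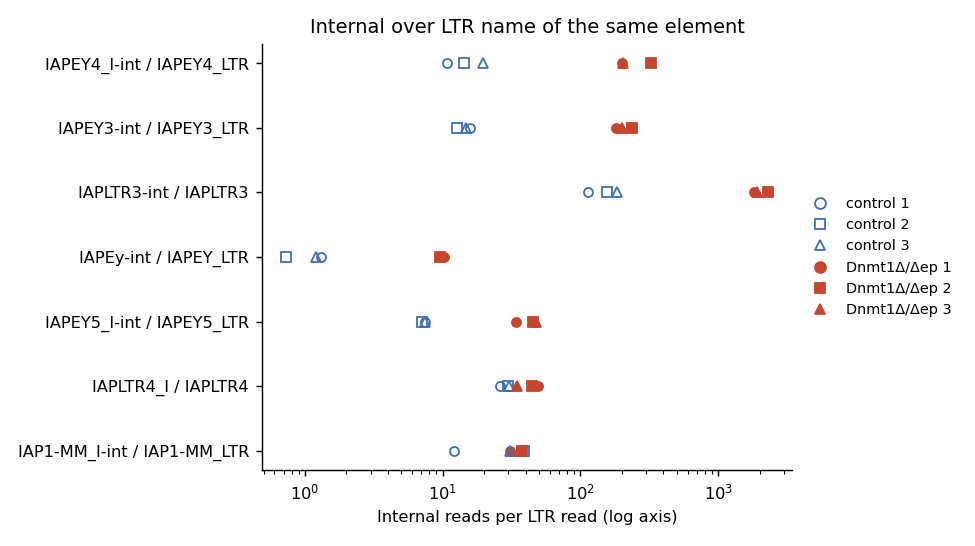
Internal reads per LTR read (log axis) of 7 IAP elements in each of 6 libraries, open blue for control and filled red for Dnmt1Δ/Δep. The groups lie apart for the upper 5 pairs, lie next to each other for IAPLTR4 and overlap for IAP1-MM.

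Set beside related families, the IAP sum had the larger ratio of means. The 10 RLTR10 names, which label other mouse endogenous retroviral sequence, summed to 0.0193, 0.0148 and 0.0203 reads per 100 gene reads in control and to 0.550, 0.466 and 0.483 in Dnmt1Δ/Δep libraries, a ratio of 27.5. The 9 ETn, MMETn and MMERVK names summed to 0.174, 0.157 and 0.134 in control, close to IAP in libraries 1 and 2 and below it in library 3, and to 0.499, 0.434 and 0.525 in Dnmt1Δ/Δep libraries, a ratio of 3.14. Single names of that family spread widely on the log2 scale of the fold change, from -0.04 for ETnERV2-int, which was not called, to 5.30 for ETnERV3-int, which ranked 5 among all names, with MMERVK10D3_LTR at 4.22 and MMERVK10D3_I-int at 3.72, all 3 of them called upregulated. For the 8 MuLV, RLTR4_, RLTR6 and MMVL30 names, which are gammaretroviral, the sums were 1.31, 0.955 and 1.08 in control and 4.70, 4.64 and 4.93 in Dnmt1Δ/Δep libraries, a ratio of 4.27. In control keratinocytes the gammaretroviral sum thus exceeded that of IAP in every library, and in Dnmt1Δ/Δep libraries it was below that of IAP in every library. RLTR10-int and RLTR10 had 3.44, 3.45 and 4.39 internal reads per LTR read in control and 4.50, 4.73 and 4.51 in Dnmt1Δ/Δep libraries, which did not overlap, a log2 difference of 0.29 (95% confidence interval -0.08 to 0.67; limma adjusted p = 0.24). The called pair outside IAP with the largest difference was MURVY, an element named for its copies on the Y chromosome, which had 0.153, 0.465 and 0.450 internal reads per LTR read in control and 1.65, 4.05 and 4.12 in Dnmt1Δ/Δep libraries (log2 difference 3.25, SE 0.52; adjusted p = 0.0025), within the range of the called IAP pairs. ERVB4_1B_MM at 1.29 and ORR1A0 at 1.22 on the log2 scale were also called with the larger change on the internal side, and ERVB4_3_MM at -2.90 and ERVB4_2_MM at -1.59 with the larger change on the LTR side.

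Genes with a known part in retroelement silencing, not all of them known for IAP, were looked at in the same libraries. Of 30 genes, all tested, 1 was called upregulated and 1 downregulated, where 6.03% of the 16829 genes tested were called upregulated and 0.392% downregulated. Their median log2 fold change was -0.08 against -0.00089 over all genes. The downregulated gene was Dnmt1. The upregulated gene was Suv39h2, a histone methyltransferase of heterochromatin, at 19.3, 14.998 and 14.1 CPM in control and 49.0, 33.9 and 43.2 CPM in Dnmt1Δ/Δep libraries (log2 fold change 1.38, SE 0.18; adjusted p = 0.0046).

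The central members other than Dnmt1 were not called. Uhrf1, the partner of DNMT1 at newly made DNA, had a log2 fold change of -0.25 (SE 0.14; edgeR adjusted p = 0.33). Trim28, the adaptor that KRAB zinc-finger proteins recruit, was at 352, 398 and 344 CPM in control and at 285, 356 and 360.0 CPM in Dnmt1Δ/Δep libraries, a log2 fold change of -0.13 (SE 0.12; edgeR adjusted p = 0.62). Setdb1, its histone methyltransferase partner, had a log2 fold change of -0.08 (SE 0.10; edgeR adjusted p = 0.71). For Dnmt3a and Dnmt3b, which set new methylation, the log2 fold changes were -0.04 (SE 0.12; edgeR adjusted p = 0.89) and -0.04 (SE 0.15; edgeR adjusted p = 0.92). RNA levels alone were measured for these genes. Of the list, 3 others had an edgeR adjusted p of at most 0.05 with a change under 2-fold. Chaf1b (log2 fold change -0.42) and Suv39h1 (-0.46) were lower in Dnmt1Δ/Δep libraries, and Zfp809 (0.63) was higher.

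Markers of other cell types were read beside the IAP levels. The 6 melanocyte markers summed to between 207 and 546 CPM in control and between 659 and 887 CPM in Dnmt1Δ/Δep libraries without overlap, with none at 0 in all libraries and none of 6 called. The 6 fibroblast markers summed to between 12.2 and 28.0 CPM in control and between 11.95 and 58.8 CPM in Dnmt1Δ/Δep libraries, and none of 6 was called. The 4 endothelial markers summed to between 5.29 and 17.1 CPM in control and between 14.5 and 21.7 CPM in Dnmt1Δ/Δep libraries, with 2 of 4 called upregulated (Pecam1 and Cdh5), while Kdr (log2 fold change -0.16; edgeR adjusted p = 0.93) and Tek (0.58; edgeR adjusted p = 0.41) were not called. The share of all genes called upregulated was 6.03%. The 6 leukocyte markers summed to between 0.137 and 0.819 CPM in control and between 1.73 and 2.18 CPM in Dnmt1Δ/Δep libraries. Of these, 2 were tested: Itgam was called upregulated, and Cd74 was not (log2 fold change 3.30; edgeR adjusted p = 0.14), although it was higher in every Dnmt1Δ/Δep library than in any control library. Ptprc, the defining marker of leukocytes, was at 0, 0 and 0.0372 CPM in control and at 0.201, 0.0116 and 0 CPM in Dnmt1Δ/Δep libraries. Reads on no annotated gene were 9.97, 8.43 and 9.30 per 100 gene reads in control and 13.7, 9.31 and 13.3 in Dnmt1Δ/Δep libraries. The part of these cells and of such reads in the IAP levels was not tested.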

How the data were processed

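Poly(A)-selected RNA of 6 keratinocyte cultures was sequenced. The authors deposited raw counts per gene and raw counts per repeat name. Per the methods and processing notes, genes were counted with HTSeq after STAR alignment. Repeats were counted with RepEnrich, which divides multi-mapped reads among related names, after bowtie alignment to MGSCv37. GRCm38 is named in the labels. Tables of the authors' own comparisons and 12 columns of normalized counts were not used. Summary rows of HTSeq for reads not assigned to a gene (8.73% to 12.9% of the counts per library) stayed out of library sizes and tests.

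Counts were tested with edgeR 4.0.16 (quasi-likelihood, filterByExpr, gene reads as library size for repeats, TMM for genes). Log2 ratios of internal to LTR counts, with a prior count of 0.5, were fitted with limma 3.58.1. Both used Benjamini-Hochberg adjustment over all features tested. Figures were drawn with matplotlib 3.10.9 under Python 3.11.15, and tests ran under R 4.3.3. The procedures were checked on simulated counts. Members and gene lists were chosen with earlier results of these data known. Named were all 24 IAP names, their pairs, Dnmt1, every called silencing gene with Uhrf1, Trim28, Setdb1, Dnmt3a and Dnmt3b, and sums of RLTR10, ETn/MMERVK and gammaretroviral names. Pairs outside IAP, single ETn and MMERVK names, 3 other silencing genes and single cell type markers were named after their values were seen. Alternatives were TMM or upper-quartile factors, DESeq2 1.42.0, no filter, other prior counts, a minimum mean count for pairs, diffSpliceDGE, a replicate block and leaving out each library. Deviations of same-numbered libraries from their group means correlated at 0.73, 0.63 and 0.55 over repeats and at 0.46, 0.37 and 0.30 over genes. Column headers place each such pair on one lane, so the numbers were read as pairs in ratios within lanes and in the replicate block. The main tests were unpaired and had no term for the lane. Libraries of one group differed by more than sampling noise. With 3 libraries per group, p-values measure the spread between these mice and lanes.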

Additional observations from a re-analysis of the deposited data

How the results depend on the processing

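Across all alternatives the number of IAP names called upregulated stayed between 20 and 22, and all 312 refitted log2 fold changes of IAP names were positive, 309 of them on the same side of the threshold as in the report. Leaving out each library gave 21 to 22 called IAP names and 79 to 149 called names in all (149 without Dnmt1Δ/Δep library 2), against 98. Upper-quartile factors gave 63 names called upregulated, 20 of them IAP, and 10 called downregulated, none of them IAP. With the replicate block 21 IAP names and 117 names in all were called, 5 IAP pairs were called, and no call of an IAP name, IAP pair or named silencing gene changed, although all 3 uncalled IAP names then had an adjusted p under 0.05 with a change under 2-fold. Per 100 reads assigned to repeats, the log2 ratio of means was 4.14 for all IAP, 4.22 for internal and 3.39 for LTR names, where the total itself was higher in Dnmt1Δ/Δep libraries both with and without its IAP reads. Leaving out each library gave 5.33 to 5.77 for all IAP, 5.41 to 5.87 for internal and 4.60 to 4.90 for LTR names, and 5 to 6 called IAP pairs. Over the other alternatives 4 to 6 IAP pairs were called, 6 with a prior count of 5 and 4 where both names had to have a mean of at least 100 counts, a limit that left the IAPEY5 pair out of the test. Leaving out each library, the IAP1-MM pair ran from -0.00045 (without control library 1) to 0.84, Dnmt3a from -0.15 to 0.043 and Dnmt3b from -0.13 to 0.048, none called. The silencing list gave 1 called gene in each direction throughout. The least precise fold changes were those of IAP1-MM_LTR (SE 0.41) and IAPEY4_LTR (SE 0.38). Both had fewer than 100 counts in at least 1 control library, as did other IAP names with a smaller SE. The coefficients of variation of IAP1-MM_LTR and IAPEY4_LTR in control were the largest of all IAP names, at 63.2% and 49.2%.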
